A study of Mus musculus with 18 samples.

Results

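Trophoblast-marker cells were looked for in 18 single-cell RNA libraries, each made from 1 whole mouse embryo at E8.5. A cell barcode with at least 3000 mouse UMIs (unique molecular identifiers, each standing for 1 captured transcript) was taken as a member when it held at least 1 UMI of 3 or more of the 4 genes Elf5, Esx1, Wnt7b and Tfap2c. Members were thus chosen by the measured counts of these genes, which are described below, and no test of them is read as a result. In all, 1078 of 105556 cells were members, or 1.02%. The label given to these cells, extraembryonic ectoderm or trophoblast, held in the Dnmt1 KO embryos and in 1 wild-type embryo but not in most members of the other embryos. They are therefore called members, after the rule.

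The libraries came from 7 wild-type embryos (WT) and from knockouts of Dnmt1 (3 embryos), Dnmt3a (4) and Dnmt3b (4), all on a 129S4/SvJae background. Each knockout embryo was null for 1 DNA methyltransferase and, like the WT embryos, came from matings between heterozygous mice. Dnmt1 copies methylation onto newly made DNA strands, and Dnmt3a and Dnmt3b methylate DNA afresh. Knockouts were genotyped on tissue of the ectoplacental cone, which is itself trophoblast, and whether WT embryos lost the same tissue before dissociation is not given in the sources used here. Its effect on the number of members was not tested. Embryos are named by group and replicate number.

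The files held 1794 to 17051 barcodes and 39528957 to 263845667 mouse UMIs per library. Dnmt3b KO 1 and Dnmt3b KO 2 shared 12249 barcodes, among them 2 members, whereas the other pairs of the 153 possible shared at most 133. Whether these 2 libraries hold separate embryos in full was not tested, and their values are given separately as the labels name them. The 4 Y-linked genes read placed WT 2 and all Dnmt1 KO embryos as male (summed level 84.4 to 93.5 in members, in CPM, or UMIs scaled to a common library total) and the other 6 WT embryos as female (0 CPM). Sex and the difference between WT 2 and the rest of the WT embryos therefore cannot be told apart. Sex is also tied to each comparison of Dnmt1 KO with WT embryos, in which WT 2 was the only male WT embryo.

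The extraembryonic ectoderm is the part of the trophoblast next to the epiblast. It supplies the chorion and the ectoplacental cone, from which the labyrinth, spongiotrophoblast and giant cells of the placenta arise. Its stem cell state depends on transcription factors such as Elf5, Eomes and Cdx2, and the Elf5 promoter is known to be unmethylated in trophoblast and methylated in cells of the embryo proper. DNA methylation also silences germline genes in somatic cells and marks 1 parental copy of imprinted genes, several of which act in the placenta.

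The promoters of Elf5 are shown because this gene is part of the rule and its silencing is a textbook case of methylation separating the lineages. They were taken from RefSeq on GRCm38.p6 as 300 bases, 250 before to 50 after the start of transcription, and CpG sites are in capitals. The upstream start site lies at chr2:103411848-103412147 on the plus strand and the downstream one at chr2:103423818-103424117 on the plus strand.
Elf5 site 1: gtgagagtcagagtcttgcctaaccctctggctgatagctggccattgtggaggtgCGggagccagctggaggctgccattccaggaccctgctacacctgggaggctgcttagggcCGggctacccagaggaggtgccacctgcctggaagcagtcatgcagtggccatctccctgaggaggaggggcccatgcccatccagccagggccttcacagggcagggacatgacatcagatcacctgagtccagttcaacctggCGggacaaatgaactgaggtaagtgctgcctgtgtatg
Elf5 site 2: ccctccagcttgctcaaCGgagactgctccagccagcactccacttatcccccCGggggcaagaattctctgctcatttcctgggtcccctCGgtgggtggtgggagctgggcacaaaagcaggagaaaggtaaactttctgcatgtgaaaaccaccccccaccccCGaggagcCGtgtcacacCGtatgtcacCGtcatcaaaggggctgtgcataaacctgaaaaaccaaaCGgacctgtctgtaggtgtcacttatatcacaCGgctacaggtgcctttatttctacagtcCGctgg
The first window held 3 CpG sites, a number that 76.7% of all promoters of this length reach, and the second held 10, which 43.5% reach. No methylation was measured in these embryos.

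Members were most frequent in the Dnmt1 KO embryos, which held 747 of the 1078 members (69.3%) among 7079 of the 105556 cells. Dnmt1 KO 1 had 66 members, or 4.36% of its cells (95% Clopper-Pearson interval 3.39 to 5.51%). Dnmt1 KO 2 had 613 members, or 19.6% (18.3 to 21.1%), and Dnmt1 KO 3 had 68, or 2.78% (2.17 to 3.51%). Dnmt1 KO 2 thus stood apart from the other Dnmt1 KO embryos and supplied most of their members. In WT embryos the share lay between 0.303% and 0.792%, with a median of 0.457%, from 169 members in all. WT 2 had 43 of these members, WT 5 only 4, and the rest 21 to 29 each. Dnmt3a KO embryos had 94 members at 0.154 to 0.633% of cells. Dnmt3b KO embryos had 68 members at 0.0915 to 0.284%. The lowest Dnmt1 KO share was above the highest share in each of the other groups, a difference known when the rule was made and given here as a description. These intervals cover counting error only.

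**Figure D1:**
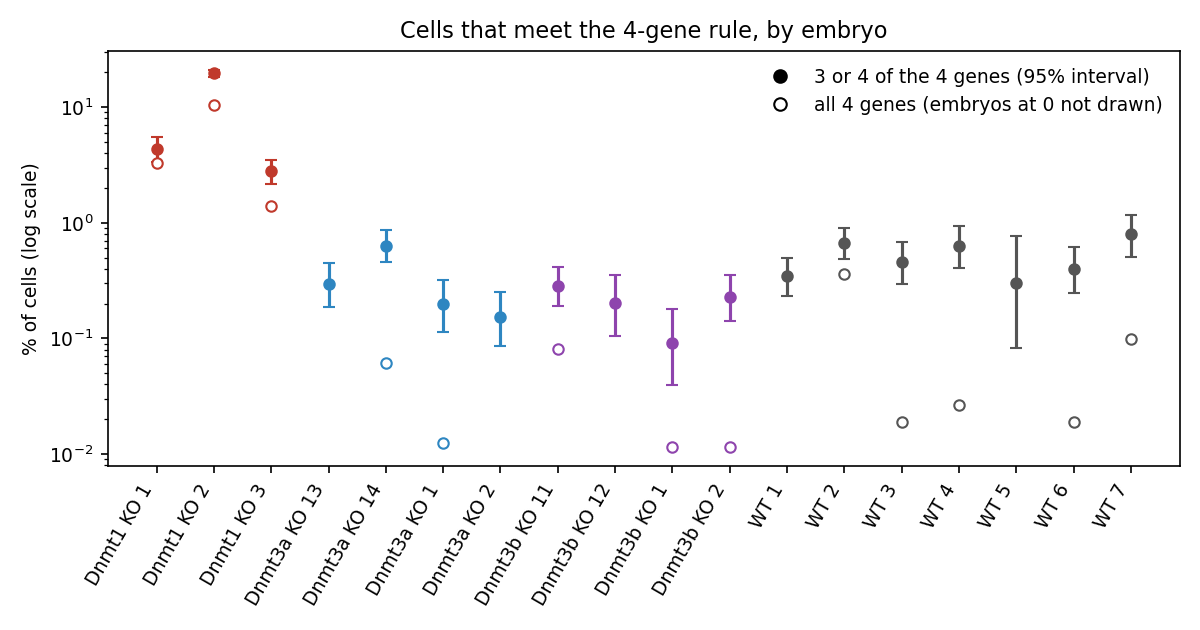
Share of cells (%, log scale) that met the rule in each of the 18 embryos. Filled points are cells with 3 or 4 of the 4 genes with a 95% Clopper-Pearson interval, open points cells with all 4 genes, and embryos with 0 such cells have no open point. The 3 Dnmt1 KO embryos lie between 2.78% and 19.6%, all other embryos at 0.792% or below, and among WT embryos only WT 2 has an open point above 0.1%.

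Members were deeper than the other cells, and a shallow cell rarely holds a UMI of each gene. Members had a median of 52904 to 95652 UMIs in Dnmt1 KO embryos against 12014 to 58203 in their other cells, and 72297 against 9439 in WT 2. With every cell thinned to 3000 UMIs, the mean share was 0.306% in Dnmt1 KO and 0.0128% in WT, with 1, 24 and 2 members left in the Dnmt1 KO embryos, 5 in WT 2 and 1 in WT 1. The Dnmt1 KO shares were then 0.0660, 0.769 and 0.0818%, against 0.0779% in WT 2. The Dnmt1 KO mean thus rested on Dnmt1 KO 2, and Dnmt1 KO 1 was below WT 2. Dnmt3b KO 2 kept 1, and the other embryos had 0.

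Esx1, an X-linked homeobox gene of the placenta, was the gene most often missing. It had no UMI in 35.6% of Dnmt1 KO members, 65.7% of WT members, 88.3% of Dnmt3a KO members and 69.1% of Dnmt3b KO members. Cells with all 4 genes numbered 452, of which 408 were in Dnmt1 KO embryos (50, 324 and 34). WT embryos held 29, and WT 2 alone had 23 of them. Dnmt3b KO embryos held 10, of which Dnmt3b KO 11 had 8, and Dnmt3a KO embryos held 5. Such cells were therefore concentrated in the 3 Dnmt1 KO embryos, WT 2 and Dnmt3b KO 11.

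The level of each rule gene was summed over the members of an embryo and scaled to CPM. Elf5, an ETS factor of trophoblast stem cells, stood at 103, 94.6 and 89.8 CPM in Dnmt1 KO members and at 70.8 CPM in WT 2. In the other 5 WT embryos with at least 10 members, it lay between 19.9 and 30.5 CPM, with a median of 21.5. Levels given below for the other WT embryos are those of these 5, without WT 5. Esx1 was at 35.4, 25.8 and 23.3 CPM in Dnmt1 KO members, at 122 CPM in WT 2 and at 2.04 to 9.95 CPM in the other WT embryos. WT 2 was thus above the Dnmt1 KO embryos for Esx1 and near them for Elf5, and the other WT embryos were below them for both. Wnt7b, a secreted Wnt ligand, was at 59.3, 55.5 and 48.7 CPM, at 45.6 CPM in WT 2 and at 18.4 to 41.4 CPM. Tfap2c, an AP-2 factor needed for trophoblast maintenance, was at 124, 183 and 103 CPM, at 98.4 CPM in WT 2 and at 36.7 to 71.3 CPM. Wnt7b and Tfap2c did not overlap between the Dnmt1 KO and WT embryos, but WT 2 was the nearest WT embryo to the Dnmt1 KO embryos for both.

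Genes outside the rule split most members in 2 kinds. Hand1 and Eomes are trophoblast transcription factors, and Trp63, which encodes p63, is the defining factor of surface ectoderm and later epidermis. A UMI of Hand1 or Eomes without any of Trp63 was found in 706 of 747 Dnmt1 KO members (94.5%) and in 31 of 43 members of WT 2 (72.1%). Detection grows with depth, and with members thinned to 3000 UMIs a UMI of Hand1 or Eomes was found in 40.9%, 39.1% and 23.5% of Dnmt1 KO members and in 51.2% of those of WT 2, which was then above the Dnmt1 KO embryos, against 0 to 8.33% in the other 6 WT embryos. In the other 6 WT embryos, WT 5 included, and without thinning, this held for 14 of 126 members (11.1%), and 59 of them (46.8%) had Trp63 without Hand1 or Eomes. A further 43 (34.1%) had none of these genes. Trp63 alone was found in 0 of the 747 Dnmt1 KO members, most of them from Dnmt1 KO 2, which by counting error alone allows up to 0.402% of cells with such a UMI. Another 5 Dnmt1 KO members had it beside Hand1 or Eomes, and 3 members of WT 2 had Trp63 alone. Dnmt3a KO members resembled those of the other WT embryos in this, with 11 of 94 on the Hand1 or Eomes side and 57 on the Trp63 side. Dnmt3b KO members were mixed, with 19 and 23 of 68, and 12 of the 19 came from Dnmt3b KO 11.

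**Figure D2:**
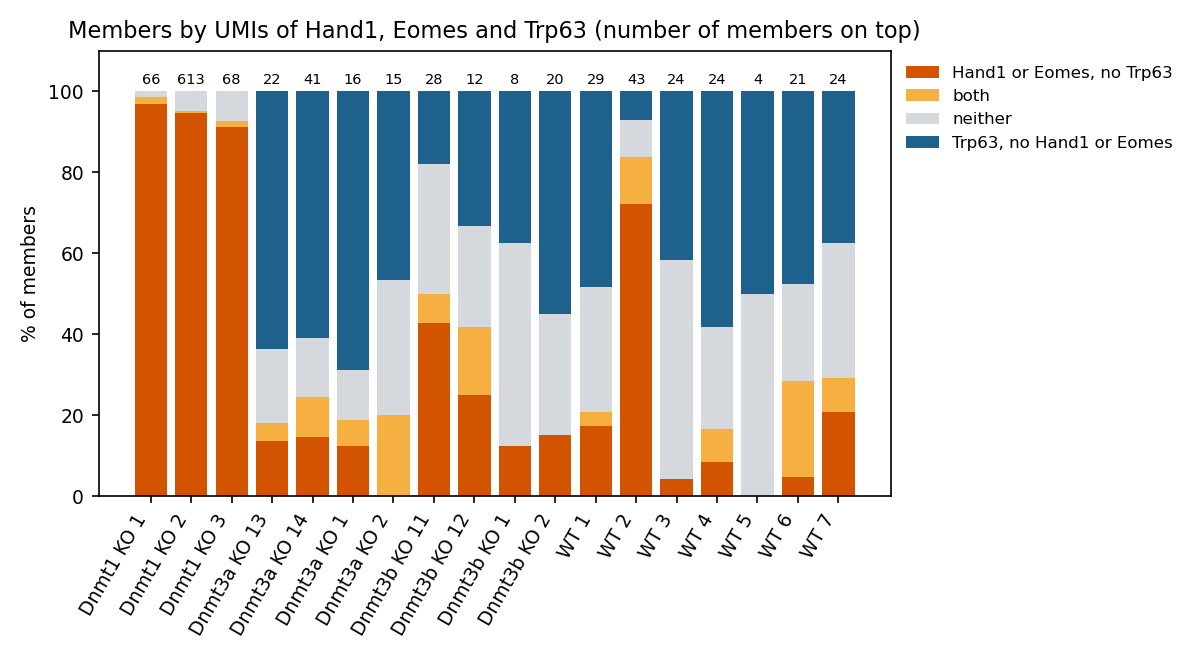
Share of members (%) in each embryo with a UMI of Hand1 or Eomes and none of Trp63, of both, of neither, or of Trp63 without Hand1 or Eomes, with the number of members above each bar. Dnmt1 KO embryos and WT 2 are mostly of the first kind (94.5% over the Dnmt1 KO members and 72.1% in WT 2), while Trp63 without Hand1 or Eomes was the larger of the 2 kinds in each of the other WT and Dnmt3a KO embryos.

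Trp63 was rare outside the members, where free RNA from lysed cells would also be counted. It was present in 54.8% of members of the other 6 WT embryos against 1.78% of their remaining cells, and in 0.669% of Dnmt1 KO members against 0.742% of their remaining cells. In Dnmt1 KO members Trp63 was thus at the level of the other cells. Hand1 was less specific, since mesoderm uses it too. It was present in 94.4% of Dnmt1 KO members and 30.2% of their other cells, but in 13.5% of members of the other WT embryos and 20.1% of their other cells. Eomes was present in 56.9% of Dnmt1 KO members, 32.6% of members of WT 2 and 5.56% of members of the other WT embryos, against 4.97%, 0.816% and 1.98% of their other cells.

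The threshold of the rule was looked at through the same genes. In Dnmt1 KO embryos, Hand1 or Eomes was present in 66.4% of the 295 cells with 2 rule genes, just outside, and in 91.1% of the 339 with 3, just inside. In WT embryos the values were 25.1% of 438 and 25% of 140 cells, and 86.2% of the 29 cells with all 4 genes. Trp63 was present in 34.5%, 51.4% and 17.2% of these WT cells. In Dnmt3a KO embryos it was present in 47.2% of the 373 cells with 2 genes and 71.9% of the 89 with 3.

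Trophoblast genes were then read by role, as the CPM of the members of each embryo. X-linked placental genes were high in the Dnmt1 KO members and WT 2. Rhox5, a homeobox gene of trophoblast, was at 1339, 1327 and 1229 CPM in Dnmt1 KO members, at 794 CPM in WT 2 and at 2.71 to 193 CPM in the other WT embryos, with a median of 3.58. Rhox6 was at 291, 288 and 352 CPM, at 201 CPM in WT 2 and at 0.448 to 2.58 CPM. Summed over the 7 genes of this list (Rhox5, Rhox6, Rhox9, Trap1a, Xlr3a, Xlr3b and Xlr4b), members reached 2441 to 2466 CPM in Dnmt1 KO, 1475 CPM in WT 2, 8.15 to 300.3 CPM in the other WT embryos and 35.8 to 322 CPM in Dnmt3a KO. In Dnmt3b KO members this sum was 52.7 to 1253 CPM, with the highest value in Dnmt3b KO 11. Rhox and Xlr genes lie in families of near-identical copies, and counts may have been split among them.

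Among the other trophoblast genes, Sfmbt2, a Polycomb protein gene imprinted in trophoblast, was at 234, 226 and 185 CPM, at 113 CPM in WT 2 and at 2.24 to 10.3 CPM in the other WT embryos. Ascl2, needed for the ectoplacental cone, was at 63.0, 160.2 and 55.5 CPM, at 85.4 CPM in WT 2 and at 0.896 to 4.07 CPM. Hand1 was at 183, 163 and 94.6 CPM, at 338 CPM in WT 2 and at 26.5 to 93.7 CPM. For all 3 genes WT 2 lay far from the rest of the WT embryos.

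Several markers of later placental cells were nearly absent. Tpbpa of the spongiotrophoblast, Prl3b1, Prl2c2 and Ctsq had 0 UMIs in all members of Dnmt1 KO and WT embryos, and Prl3d1 of giant cells was at 0.0483 CPM in Dnmt1 KO 2 only. Syna, a syncytin of the labyrinth, was at 0 CPM and Synb at 0.0242 CPM in Dnmt1 KO 2 only. Gcm1, the switch to syncytiotrophoblast, was at 0.283 to 0.918 CPM in Dnmt1 KO members and at 1.86 CPM in WT 2. The markers named so far were thus at or near 0 in members of both genotypes. Other genes of the same lists were not. Slc16a3 was at 175, 164 and 132 CPM in Dnmt1 KO members and at 239 CPM in WT 2, and Phlda2 at 444, 877 and 439 CPM and at 1354 CPM in WT 2. The chorion and labyrinth list summed to 186 to 240 CPM in Dnmt1 KO members and 341 CPM in WT 2.

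The surface ectoderm list moved the other way. Its 7 genes summed to 74.3 to 94.0 CPM in Dnmt1 KO members, 198 CPM in WT 2, 375 to 611.5 CPM in the other WT embryos, 509.7 to 709.7 CPM in Dnmt3a KO and 309 to 614 CPM in Dnmt3b KO. Krt5, a basal keratin, had 0, 0.0242 and 0.159 CPM in Dnmt1 KO members and 2.48 CPM in WT 2, against 6.03 to 23.7 CPM in the other WT embryos. Tfap2b was at 0 CPM in all 3 Dnmt1 KO embryos and at 2.79 CPM in WT 2. Other genes of the list were present in Dnmt1 KO members, Wnt6 in 87.0% and Grhl3 in 25.4%, against 17.1% and 2.7% of their other cells. In members of the other 6 WT embryos, WT 5 included, they were present in 98.4% and 73.0%. The list summed to 15.6 to 22.1 CPM in the other cells of the Dnmt1 KO embryos, below their members. Markers of immune cells were at or near 0 in every embryo (at most 1.01 CPM summed over 5 genes). Haemoglobin and other erythroid genes summed to 12.5 to 53 CPM in Dnmt1 KO members, 2145 CPM in WT 2 and 43.5 to 2249 CPM in the other WT embryos. Extraembryonic endoderm genes such as Ttr summed to 16.8 to 310.7 CPM in Dnmt1 KO members, 32.9 CPM in WT 2 and 21.9 to 3116 CPM in the other WT embryos, with the highest value in WT 7.

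**Figure D3:**
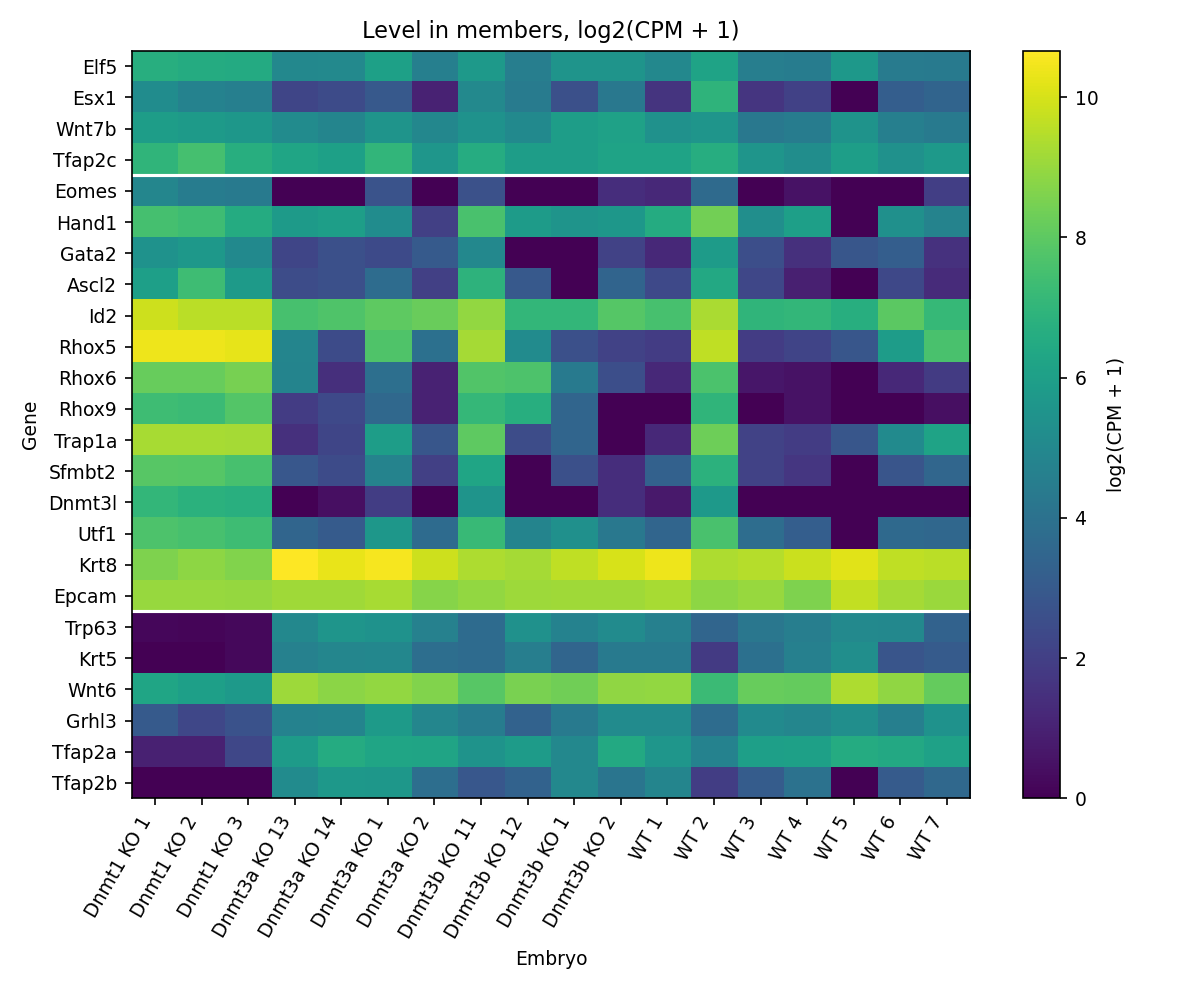
Level in members, log2(CPM + 1), of the 4 rule genes (top block), of trophoblast genes (middle block) and of surface ectoderm genes (bottom block) in each of the 18 embryos. Trap1a and Sfmbt2 are highest in the 3 Dnmt1 KO embryos, WT 2 and Dnmt3b KO 11, where Rhox5 and Rhox6 are high too, Rhox6 is also at 206 CPM in Dnmt3b KO 12 and Rhox5 at 212 CPM in Dnmt3a KO 1. Trp63, Krt5, Tfap2a and Tfap2b are at or near 0 in all 3 Dnmt1 KO embryos, but Wnt6 and Grhl3 of the same block were present in 87.0% and 25.4% of Dnmt1 KO members.

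The whole profiles of the members followed the same division. Over the 10250 genes with enough counts, log2 CPM of the members correlated at Pearson's r of 0.978 to 0.990 between Dnmt1 KO embryos, 0.928 to 0.944 between Dnmt1 KO and WT 2, and 0.777 to 0.844 between Dnmt1 KO and the other WT embryos. WT 2 with the other WT embryos gave 0.895 to 0.906, and the latter among themselves 0.940 to 0.965. Dnmt3b KO 11 was closer to WT 2, at 0.953, than to the other WT embryos, at 0.905 to 0.917. These values are across genes, which are not independent, and depth and sex differ between the embryos.

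Dnmt1 itself was low in every Dnmt1 KO embryo, as the labels state. Its level in members was 23.1, 19.8 and 18.9 CPM in Dnmt1 KO, 124 CPM in WT 2 and 124 to 148 CPM in the other WT embryos, so the groups did not overlap. The log2 fold change was -2.55 ± 0.12 (SE; 3 Dnmt1 KO and 6 WT embryos), with an adjusted p of 1.53e-06 in edgeR's quasi-likelihood test. Dnmt1 transcripts were thus still counted in these embryos, at a lower level, and their source was not tested. In the other cells of the same embryos the log2 fold change was -2.77. Of 9 genes of the methylation machinery, the targeted Dnmt1 alone was called, while 14.7% of all genes tested were called in this comparison. Dnmt3l, the cofactor of the de novo enzymes, was at 133.5, 110 and 106 CPM in Dnmt1 KO members and 53.1 CPM in WT 2, against at most 0.679 CPM in the other WT embryos (adjusted p = 0.0213).

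The comparison of Dnmt1 KO with WT members asked which genes depend on Dnmt1 in these cells. Counts were summed per embryo, and 3 Dnmt1 KO and 6 WT embryos with at least 10 members entered (WT 5, with 4, did not). Genes counted as called where edgeR's adjusted p was below 0.01 and the log2 fold change was 1 or more in size. Of 10250 genes, 352 were higher in Dnmt1 KO members (3.43%) and 1150 lower (11.2%), or 14.7% in all. Of the 126 members of the other 6 WT embryos, WT 5 included, 46.8% had Trp63 alone and 34.1% none of Hand1, Eomes and Trp63. This comparison thus set Hand1 or Eomes members against members largely of other kinds, and genotype and makeup cannot be told apart in it. Sex differed too, since all 3 Dnmt1 KO embryos were male and WT 2 was the only male WT embryo. Without WT 2, which was nearest to the Dnmt1 KO embryos, 719 genes were higher. The WT embryos left were then all female, so sex and genotype cannot be told apart in that count. The counts higher and lower were 175 and 588 without Dnmt1 KO 1, 165 and 491 without Dnmt1 KO 2, and 223 higher without Dnmt1 KO 3.

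A second comparison limited to cells with all 4 rule genes matched the makeup more closely. It set the 50, 324 and 34 such cells of the Dnmt1 KO embryos against the 23 of WT 2, which is also male, and the lone WT embryo was assumed to vary like the Dnmt1 KO embryos. Its calls therefore compare the Dnmt1 KO embryos with WT 2, which stood apart from the other WT embryos, and carry no measure of the spread among WT embryos. Of 10773 genes, 17 were higher (0.158%) and 20 lower (0.186%), or 0.343% in all. At an unadjusted p under 0.05 there were 2068 genes. Without Dnmt1 KO 1, 2 or 3 in turn the higher genes numbered 29, 47 and 58, and without Dnmt1 KO 2 or 3 the lower ones numbered 32 and 55.

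Of 31 listed germline genes, 16 were higher in Dnmt1 KO than in WT members and 0 lower, against 3.43% higher and 11.2% lower over all genes. Only 18 had enough counts to be tested. A gene silent in WT passes that filter only through the Dnmt1 KO embryos, so the count over tested genes is in part set by it. Leaving out Dnmt1 KO 1 or Dnmt1 KO 2 left 10 of the 16. Among cells with all 4 rule genes, 4 were higher (Rpl39l, Tex13b, Rhox13 and Fkbp6), against 0.158% over all genes. Rpl39l, a testis paralog of the ribosomal protein gene Rpl39, was at 131, 156 and 160.3 CPM in Dnmt1 KO members, at 6.21 CPM in WT 2 and at 0 to 5.53 CPM in the other WT embryos. The groups did not overlap. Its log2 fold change was 5.92 ± 0.54 (SE, adjusted p = 9.93e-05 in edgeR) among all members and 4.07 ± 0.29 (adjusted p = 0.000558) among cells with all 4 genes, where WT 2 had 18 UMIs. Fkbp6, a co-chaperone needed for meiosis, was at 118.5, 74.1 and 90.9 CPM, at 5.90 CPM in WT 2 and at 0 to 1.08 CPM (log2 fold change 5.81 ± 0.53, adjusted p = 9.7e-05 in edgeR).

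Of the 16 genes, 3 had 0 UMIs in all WT members. The same held for Tex101, Taf7l, Tuba3b and Dpep3, which were too low to be tested, at 0.425 to 5.24 CPM in Dnmt1 KO members. Tex13b, a testis-expressed X-linked gene, was at 30.9, 30.1 and 41.1 CPM in Dnmt1 KO members, at least 149-fold above the level that 3 UMIs over all WT members would give (0.228 CPM). Rhox13, a germ cell gene of the Rhox cluster, was at 28.8, 29.1 and 29.5 CPM, at least 127-fold above it. Tuba3a, a testis alpha-tubulin, was at 11.3, 10.9 and 15.1 CPM, at least 54.5-fold above it. Dazl, an RNA-binding protein of germ cells, was not at 0 in WT, with 35, 23.8 and 32.2 CPM in Dnmt1 KO members, 0.931 CPM in WT 2 and at most 1.08 CPM in the other WT embryos (log2 fold change 6.09 ± 0.42).

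Promoters of Tex13b, Rhox13 and Tuba3a, the 3 listed genes with the largest fitted change, are shown with their CpG sites in capitals, as for Elf5. They lie at chrX:140813384-140813683 on the minus strand, chrX:38120590-38120889 on the plus strand and chr6:125286032-125286331 on the minus strand.
Tex13b: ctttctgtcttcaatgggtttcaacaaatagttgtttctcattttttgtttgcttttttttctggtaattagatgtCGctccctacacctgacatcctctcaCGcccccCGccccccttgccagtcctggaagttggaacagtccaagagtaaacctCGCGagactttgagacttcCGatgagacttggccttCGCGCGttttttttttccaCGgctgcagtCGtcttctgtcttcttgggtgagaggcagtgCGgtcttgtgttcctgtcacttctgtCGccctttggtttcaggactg
Rhox13: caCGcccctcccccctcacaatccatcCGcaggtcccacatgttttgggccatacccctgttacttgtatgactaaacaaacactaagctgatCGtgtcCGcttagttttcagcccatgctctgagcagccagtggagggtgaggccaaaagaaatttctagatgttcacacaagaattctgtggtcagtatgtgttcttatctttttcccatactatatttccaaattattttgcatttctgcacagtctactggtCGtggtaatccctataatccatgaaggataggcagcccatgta
Tuba3a: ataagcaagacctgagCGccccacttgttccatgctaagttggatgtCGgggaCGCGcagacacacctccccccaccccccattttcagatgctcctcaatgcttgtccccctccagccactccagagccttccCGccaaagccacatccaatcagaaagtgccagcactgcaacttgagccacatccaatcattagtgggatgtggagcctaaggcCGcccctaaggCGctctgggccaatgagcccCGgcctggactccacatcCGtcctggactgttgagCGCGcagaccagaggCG
They held 13, 5 and 12 CpG sites, numbers that 37.9%, 62.0% and 39.6% of all promoters reach. The median promoter held 7, so Tex13b and Tuba3a were above it and Rhox13 below it. The motif CACGTG, which reads the same on both strands and is an E-box bound by MAX with its partner MGA in a repressor complex of germline genes and by other factors, was in none of these windows. It was in 6 of the 14 matched promoters of the germline genes called higher (42.9%), in 44.8% of those of the whole germline list, in 13.8% of those of all genes called higher, in 12.4% of the promoters of tested genes and in 7.15% of all 32851 promoters. The share was thus alike in the called germline genes and in the list as a whole.

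Several germline genes were already present in members of WT 2. Tex19.1, which guards germ cells and placenta against retrotransposons, was at 185, 163 and 134 CPM in Dnmt1 KO members and at 128 CPM in WT 2, against at most 0.542 CPM in the other WT embryos. Its log2 fold change among cells with all 4 rule genes was -0.14 ± 0.14 (adjusted p = 0.645 in edgeR). Rnf17, of the germ cell Tudor family, was at 46.9, 42.1 and 43.5 CPM, at 23.9 CPM in WT 2 and at 1.79 to 5.53 CPM. Asz1 was at 21.2, 20.4 and 24.8 CPM and at 6.83 CPM in WT 2, and Sohlh2, an oogenesis and spermatogenesis factor, at 25.8, 25.1 and 26.5 CPM and at 7.45 CPM in WT 2. Both were at 0 CPM in the members of the other WT embryos. Over all 31 genes, members summed to 653 to 735 CPM in Dnmt1 KO, 200.3 CPM in WT 2 and 9.38 to 18.4 CPM in the other WT embryos. The sum was 335, 647, 120 and 163 CPM in Dnmt3b KO 11, 12, 1 and 2, so Dnmt3b KO 12 was near the Dnmt1 KO embryos.

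**Figure D4:**
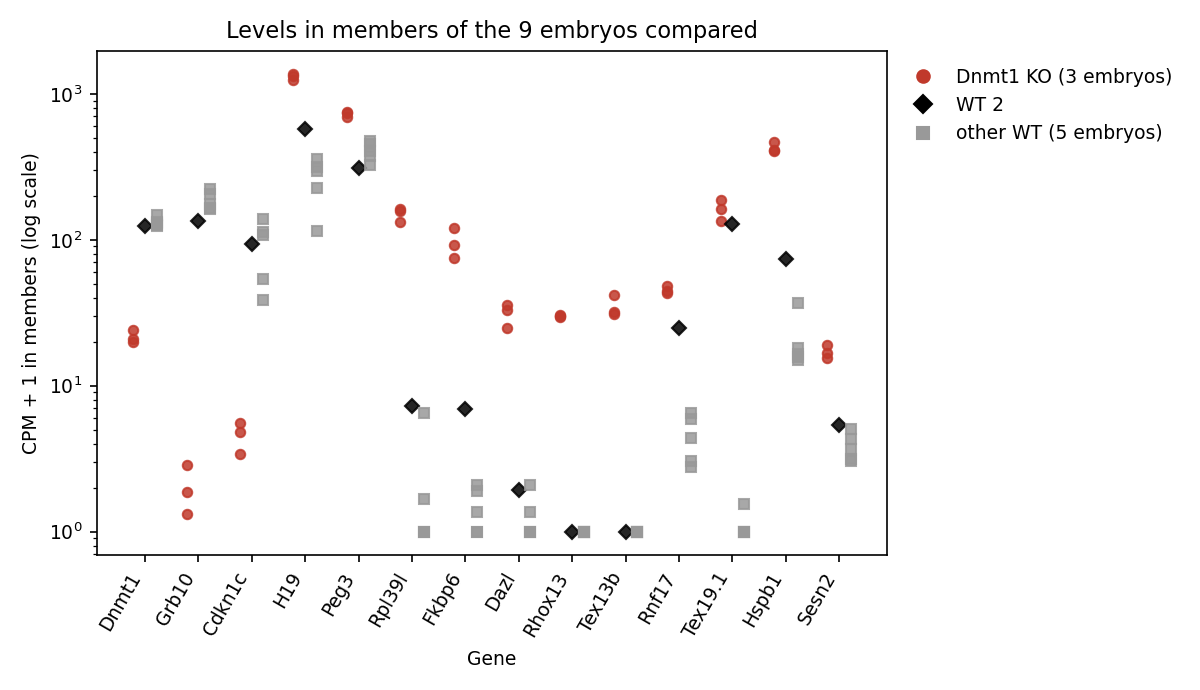
Level in members (CPM + 1, log scale) of 14 genes, with 1 point for each of the 3 Dnmt1 KO embryos, WT 2 and the 5 other WT embryos compared. Rpl39l, Fkbp6, Dazl, Rhox13 and Tex13b are high in all Dnmt1 KO embryos and low in every WT embryo, Grb10 and Cdkn1c show the opposite, and Tex19.1 in WT 2 (128 CPM) lies near the Dnmt1 KO embryos.

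Imprinted genes moved in both directions. Of 27 canonical imprinted genes tested among all members, 4 were higher (H19, Peg10, Peg3 and Zrsr1) and 12 lower in Dnmt1 KO, against 3.43% and 11.2% over all genes. In cells with all 4 rule genes, H19 (log2 fold change 1.36) and Peg3 (2.04) were above WT 2, and Grb10 (-6.80) and Cdkn1c (-4.76) below it. The median over the 27 genes tested there was 0.69, against 0.03 over all genes, with WT 2 as the only WT embryo. Without Dnmt1 KO 2 or 3, 2 genes were higher in the comparison of all members. Grb10, a maternally expressed growth inhibitor in the placenta, was at 1.84, 0.869 and 0.317 CPM in Dnmt1 KO members, at 133 CPM in WT 2 and at 161 to 223 CPM in the other WT embryos. The groups did not overlap, and the log2 fold change was -7.37 ± 0.34 (adjusted p = 1.53e-06 in edgeR) among all members and -6.80 ± 0.42 (adjusted p = 0.000337) among cells with all 4 genes.

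Cdkn1c, the cell cycle inhibitor p57 that restrains placental growth, was at 2.41, 4.57 and 3.81 CPM, at 92.8 CPM in WT 2 and at 38.0 to 137 CPM. Its log2 fold change was -4.45 ± 0.44 among all members and -4.76 ± 0.31 among cells with all 4 genes (adjusted p = 0.000129 and 0.000376 in edgeR). H19, a maternally expressed long non-coding RNA, was at 1374, 1248 and 1320 CPM, at 572 CPM in WT 2 and at 114 to 357 CPM, with log2 fold changes of 2.18 ± 0.34 and 1.36 ± 0.15. Peg3, paternally expressed, was at 695, 754 and 739.5 CPM, at 308 CPM in WT 2 and at 324 to 477 CPM, with 1.02 ± 0.12 and 2.04 ± 0.19. These 4 genes had the same direction in the other cells of the embryos, where 9 of 30 imprinted genes were higher and 8 lower, against 7.72% and 5.02% over all genes there.

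Other imprinted genes that were lower among all members were not called among cells with all 4 genes. Mest was at 41.6, 40.3 and 83.3 CPM in Dnmt1 KO members, at 245 CPM in WT 2 and at 366 to 806 CPM, with log2 fold changes of -3.00 ± 0.39 (adjusted p = 0.000388 in edgeR) and 0.34 ± 0.48 (adjusted p = 0.745), a change of sign. Meg3, Airn and Nnat likewise changed sign. Igf2r, whose product clears Igf2, was lower among all members (-2.75 ± 0.18) and kept its sign among cells with all 4 genes, with -1.68 ± 0.25 (adjusted p = 0.0257). Mesoderm genes were also present in WT members, with 82.4 to 173 CPM over 7 genes in the other WT embryos, 43.8 CPM in WT 2 and 1.70 to 27.8 CPM in Dnmt1 KO, and their part in these differences was not tested.

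Genes imprinted in the placenta by histone marks were also read, from a list of 5. Jade1 and Gab1 were higher in Dnmt1 KO members, against 3.43% over all genes, and Sfmbt2, Slc38a4 and Smoc1 were not called. Jade1 was at 183, 204 and 153 CPM, at 68.6 CPM in WT 2 and at 26.5 to 40.2 CPM (log2 fold change 2.30 ± 0.26, adjusted p = 0.000234 in edgeR). It had, among cells with all 4 genes, 1.30 ± 0.21 with an adjusted p of 0.0325.

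The trophoblast lists had calls in both directions, to be read against 3.43% higher and 11.2% lower over all genes. Of 9 transcription factors tested, Eomes and Ets2 were higher and Tfap2a lower in Dnmt1 KO members. Tfap2a, also a gene of surface ectoderm, was at 0.991, 0.966 and 3.81 CPM in Dnmt1 KO members, 25.1 CPM in WT 2 and 47.5 to 84.5 CPM in the other WT embryos. Cdx2, a founding factor of the trophoblast, was at 49.1, 31.2 and 37.8 CPM, at 54.0 CPM in WT 2 and at 50.4 to 127 CPM (adjusted p = 0.0366), and Gata3 had a log2 fold change of -0.22 ± 0.21. Leaving out any 1 of the 3 Dnmt1 KO embryos, or any 1 WT embryo of the comparison other than WT 2, left 1 higher transcription factor, and leaving out WT 2 gave 4. Of 8 signalling genes, Spry4 and Dusp6, both induced by FGF signalling and read as its feedback, were lower, or 2 of 8 against 11.2% over all genes. Spry4 was at 0.142, 0.266 and 0.476 CPM in Dnmt1 KO members, at 6.83 CPM in WT 2 and at 8.13 to 14.7 CPM in the other WT embryos (log2 fold change -5.0 ± 0.41, adjusted p = 6.44e-05 in edgeR). Among cells with all 4 rule genes it was too low to be tested, at 0, 0.147 and 0.872 CPM in Dnmt1 KO and 0.485 CPM in WT 2 (1 UMI). Dusp6 was there at 1.66, 1.18 and 4.94 CPM and at 3.39 CPM in WT 2 (log2 fold change -0.60), so neither showed the large fall.

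Among the epithelial genes, Gjb5, a gap junction protein gene, was higher and Krt7 and Cdh3 were lower, and the call of Gjb5 was lost without any 1 of the 3 Dnmt1 KO embryos or of WT 1, 3, 4, 6 or 7. Flt1 of 5 tested ectoplacental cone genes, and Dlx3 and Slc16a1 of 4 chorion genes, were lower, counts too small to set apart from the 11.2% lower over all genes. Among cells with all 4 rule genes, the median log2 fold changes of these lists lay between -0.22 and 0.21, against 0.03 over all genes. So few genes of any kind were called there that a lack of calls does not set these lists apart. The 7 X-linked placental genes all had positive log2 fold changes among all members (median 2.93) and 0 passed the test, with WT 2 near the Dnmt1 KO embryos. Without WT 2, 6 of them were higher, but the WT embryos left were all female, so genotype and sex cannot be told apart for these X-linked genes. Among cells with all 4 genes their median was 0.14, Rhox5 had 0.29 ± 0.14 (adjusted p = 0.29 in edgeR) and Rhox6 0.14 ± 0.19.

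Esx1 was the rule gene that went against the others. Among cells with all 4 genes it stood at 40.3, 35.4 and 38.4 CPM in Dnmt1 KO and at 180 CPM in WT 2, or 371 UMIs. Every such cell had to hold Esx1, so this is a description of cells chosen on this gene. The other 3 rule genes had log2 fold changes of 0.15 (Elf5), -0.06 (Wnt7b) and 0.28 (Tfap2c) in the same fit.

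Of 10 target genes of p53 tested among all members, 6 were higher (Mdm2, Ccng1, Trp53inp1, Bbc3, Sesn2 and Perp) and 0 lower, against 3.43% and 11.2% over all genes, and without Dnmt1 KO 1 there were 3. Cdkn1a, Phlda3, Zmat3 and Bax were not called, at log2 fold changes of 0.19, 0.12, 0.32 and 0.67. Sesn2, a stress-induced regulator of metabolism, was at 15.9, 14.4 and 17.9 CPM in Dnmt1 KO members, at 4.35 CPM in WT 2 and at 2.04 to 4.03 CPM in the other WT embryos (log2 fold change 2.41 ± 0.23, adjusted p = 0.000115 in edgeR). Ccng1 was at 80.4, 68.4 and 106 CPM, at 32.0 CPM in WT 2 and at 10.7 to 21.0 CPM. All 11 listed genes had a positive log2 fold change among cells with all 4 genes, with a median of 1.14, against 0.03 over all genes. The lack of calls there does not set them apart, since few genes of any kind were called.

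Pluripotency genes were not called among members. Of 7 tested, 0 were higher or lower, against 3.43% and 11.2% over all genes, and Pou5f1, the gene of Oct4, was at 5.38, 3.36 and 9.20 CPM in Dnmt1 KO members, at 1.24 CPM in WT 2 and at 0 to 32.4 CPM in the other WT embryos. Utf1, which trophoblast also uses, was at 203, 189 and 161 CPM, at 191 CPM in WT 2 and at 8.06 to 13 CPM. In the other cells of the same embryos 4 of 10 genes of this list were higher (Utf1, Slc7a3, Fgf5 and Dppa4), against 7.72% over all genes. The other cells of the Dnmt1 KO embryos include 295 cells with 2 rule genes, 66.4% of them with Hand1 or Eomes. Utf1 was at 4.26, 22.1 and 10.8 CPM in these other cells, and the part of such cells was not tested. The difference between members and other cells was not called for Utf1 or Dppa4 and was lower in members for Slc7a3, Fgf5 and Pou5f1. The makeup of WT members enters it. With cells holding all 4 rule genes, and WT 2 alone, it was -0.98 for Slc7a3 and -1.92 for Pou5f1. It was 3.15 for Fgf5, which had 0 UMIs in those cells of WT 2. Pou5f1 itself had log2 fold changes of -1.1 among all members and 2.86 among those cells, where WT 2 had 1 UMI. Bst2, an interferon-induced restriction factor, was the single gene of its list with enough counts and was higher, at 249, 225 and 216 CPM against 84.8 CPM in WT 2 and 16.3 to 42.4 CPM. Of 20 housekeeping genes 0 were called, against 14.7% over all genes.

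The genes with the largest changes among those at 50 CPM or more whose embryos did not overlap were taken by rule, 10 in each direction, from 77 higher and 217 lower genes. The higher ones were Rpl39l, Fkbp6, Hspb1, Htra1, Gm21887, Klf2, Tex15, Noct, Gm1673 and Bst2. Hspb1, a small heat shock protein, was at 470, 406 and 409 CPM in Dnmt1 KO members, at 73.3 CPM in WT 2 and at 14.1 to 36.0 CPM in the other WT embryos. Its log2 fold change was 3.97 ± 0.47 (adjusted p = 0.000264 in edgeR) among all members and 2.19 ± 0.16 (adjusted p = 0.000604) among cells with all 4 genes. Htra1, a secreted serine protease of the placenta, was at 73.1, 68.2 and 68.9 CPM, at 16.1 CPM in WT 2 and at 1.79 to 6.79 CPM (3.68 ± 0.48 and 1.69 ± 0.19). Noct, a circadian NADP(H) phosphatase, was at 148, 147 and 131 CPM, at 51.9 CPM in WT 2 and at 11.2 to 16.6 CPM (2.85 ± 0.41 and 1.26 ± 0.15). All 3 were called in both comparisons.

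The lower ones were Bhlha9, Grb10, Tagln, Dlk1, Gas1, Sox9, Hoxaas3, Npnt, Gap43 and Hapln1, of which Grb10 alone was also lower among cells with all 4 genes. Sox9, a factor of neural crest, cartilage and other tissues, was at 0.142, 0.242 and 3.49 CPM in Dnmt1 KO members, 13 CPM in WT 2 and 46.2 to 99.9 CPM. Npnt, an extracellular matrix protein, was at 2.97, 1.14 and 3.01 CPM, 38.2 CPM in WT 2 and 113 to 142 CPM. WT 2 lay between the Dnmt1 KO and the other WT embryos for both, as it did for the surface ectoderm list.

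The remaining genes called among cells with all 4 rule genes were named after their values were seen. Trim5, of a family of antiviral factors, and Gtsf1, of the piRNA pathway, had 0 UMIs in WT members. Trim5 was at 55.9, 37.2 and 44.6 CPM in Dnmt1 KO members, at least 201-fold above the level of 3 UMIs, and Gtsf1 at 15.0, 19.3 and 21.3 CPM, at least 81.1-fold above it. Cyct, the cytochrome c of testis, was at 36.7, 35.4 and 42.0 CPM against 1.86 CPM in WT 2, and Rpl10l, a testis copy of Rpl10, at 21.2, 17.3 and 21.6 CPM against 0.931 CPM. Hsph1, a heat shock protein, 1700018B24Rik, 3830403N18Rik and Adgrl2 were higher as well. Copies such as Rpl39l, Rpl10l, Tuba3a and the globins share sequence with other genes, so their counts are uncertain.

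The genes lower among these cells included Dnmt1, Egln1, Csnk2a2, Brd1, Khdrbs3, Samd1, Ier5l, Nt5dc2, Crip1, Nme2, Upp1 and 5 globin genes, beside Grb10 and Cdkn1c. Esx1 is counted among the 20 but is no result, since the cells were chosen on it. Egln1, an oxygen-sensing prolyl hydroxylase, was at 16.9, 15.4 and 14.4 CPM in Dnmt1 KO members, 83.8 CPM in WT 2 and 79.2 to 110 CPM in the other WT embryos, and was lower in both comparisons (-2.42 ± 0.14 and -2.44 ± 0.18). Csnk2a2, a catalytic subunit of casein kinase 2, was at 55.8, 53.6 and 53.8 CPM, 177 CPM in WT 2 and 160 to 176 CPM (-1.54 ± 0.10 and -1.88 ± 0.12). For both, WT 2 lay with the other WT embryos. The globins followed the erythroid genes of WT 2 given above, with Hba-x at 1217 CPM in its cells with all 4 genes and 5.64 to 6.69 CPM in those of Dnmt1 KO, and their part in these calls was not tested.

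The Dnmt1 KO effect in members was next set against that in all other cells of the same embryos. In the other cells, 3 Dnmt1 KO and 7 WT embryos gave 1413 higher genes (7.72%) and 918 lower ones (5.02%), or 12.7% of 18304. Without Dnmt1 KO 1 or 2 the lower genes numbered 584 and 526. Among the germline genes 28 of 31 were higher in the other cells and 0 lower, and the 7 X-linked placental genes were all higher.

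The difference itself was tested with an interaction term and the embryo as a block, over 3 Dnmt1 KO and 6 WT embryos. It was higher in members for 329 of 16852 genes (1.95%) and lower for 1021 (6.06%), or 8.01% in all, a split of 24.4% higher that became 14.9% (204 and 1167 genes) with DESeq2 size factors. That scaling moved the median over all genes from 0.06 to -0.09. The counts higher and lower were 92 and 680 without Dnmt1 KO 1 and 89 and 514 without Dnmt1 KO 2. Without WT 2 they were 732 higher, and without WT 4, 6 or 7, 155, 150 and 161 higher. The makeup of WT members and that of the other cells enter this contrast too.

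With cells holding all 4 rule genes in place of all members, and WT 2 as the only WT embryo with enough of them, the difference was called for 1 higher gene (0.00579%) and 8 lower ones (0.0463%), or 0.0521% of 17271 genes. The higher gene was Gm1673, at 196 to 279 CPM in Dnmt1 KO members and 59.9 CPM in WT 2, but at 30.3 to 49.5 CPM in the other Dnmt1 KO cells and 50.2 CPM in those of WT 2. The 8 lower genes were Tex19.1, Asz1, Sohlh2, Rhox4c, Rhox4d, Rhox4e, Gm14139 and Hba-x. In the other cells, Tex19.1 was at 52.6, 65.7 and 40.6 CPM in Dnmt1 KO and at 2.05 to 4.54 CPM in WT, with a log2 fold change of 3.92. Asz1 was at 20.8, 18.9 and 21.9 CPM there and at 0.0803 to 0.398 CPM in WT. Tex19.1 and Asz1 were thus low in other WT cells but present in members of WT 2, and the Dnmt1 KO effect against WT 2 was smaller in members. With WT 2 as the only WT embryo here, the spread among WT embryos was not measured. Hba-x, an embryonic globin, was by contrast at 18100 CPM in the other cells of WT 2 and at 636 to 758 CPM in those of Dnmt1 KO. Rpl39l and Fkbp6 were low in both kinds of WT cells, and their difference was not called.

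**Figure D5:**
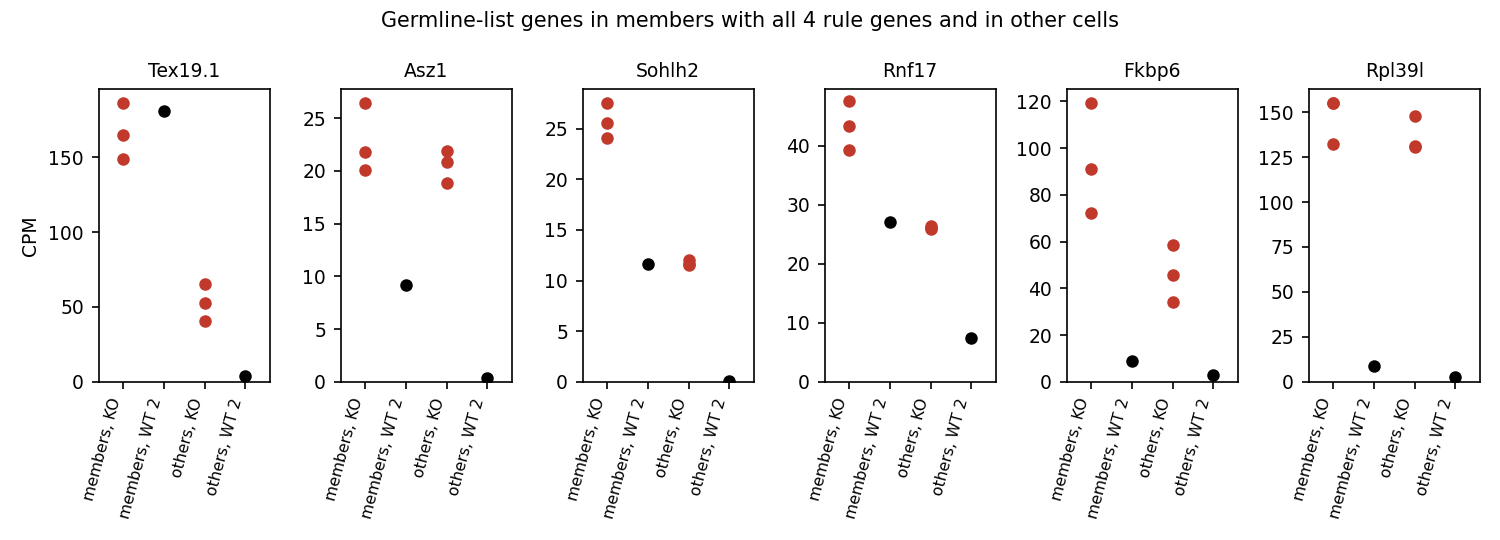
Level (CPM, linear scale from 0) of 6 germline-list genes, chosen after their values were seen, in cells with all 4 rule genes and in the other cells of the 3 Dnmt1 KO embryos and of WT 2. Tex19.1 is at 181 CPM in the cells of WT 2 with all 4 genes and 3.81 CPM in other WT 2 cells, while Rpl39l is at 8.73 and 2.88 CPM.

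No gene was called between Dnmt3a KO and WT members. A fit over all groups with at least 10 members per embryo called 0 of 9895 genes in either direction (0%), with 912 at an unadjusted p under 0.05. Without WT 2, the 4 Y-linked genes were higher and Xist lower, and all 4 Dnmt3a KO embryos were male. Germline genes summed to 41.8 to 53.3 CPM in Dnmt3a KO members, below WT 2 (200.3 CPM) but above each of the other WT embryos (9.38 to 18.4 CPM). This difference between sums was not tested. Rpl39l was at 1.39 to 8.09 CPM in Dnmt3a KO members.

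Dnmt3b KO members had 4 higher genes (0.0404%) and 0 lower (0%), with 766 of 9895 at an unadjusted p under 0.05 and 3 embryos in the fit, without Dnmt3b KO 1, which had 8 members. Rpl39l was at 109, 135 and 41.2 CPM in Dnmt3b KO 11, 12 and 2, above all WT embryos (log2 fold change 5.14 ± 0.56, adjusted p = 0.000407 in edgeR). Dazl was at 18.1, 137 and 1.65 CPM (6.51 ± 0.90, adjusted p = 0.00363), and Slc25a31 and AU022751 were called as well. Rpl39l and Dazl remained when Dnmt3b KO 2, which shares barcodes with Dnmt3b KO 1, was left out, and Rpl39l alone when the Dnmt1 KO embryos were left out of the fit. Without WT 2, 34 genes were higher and 1 lower. The higher ones included the Y-linked Ddx3y, Eif2s3y, Kdm5d and Uty, as the WT embryos left were all female. They also included genes of the germline and X-linked placental lists, such as Tex19.1 (log2 fold change 8.62), Asz1 (8.97), Rhox6 (6.78) and Rhox9 (8.52). The part of sex in these was not tested. Dnmt3b KO 11, whose members were more often on the Hand1 or Eomes side, had Rhox5 at 590 CPM and Ascl2 at 118 CPM, against 3.29 to 34.3 CPM and 0 to 9.88 CPM in the other Dnmt3b KO embryos.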

How the data were processed

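The authors deposited filtered gene-by-barcode matrices of UMI counts, 1 per embryo, from the 10x 3' v3 assay. Per the file headers these counts came from Cell Ranger 3.1.0 in 17 libraries and 5.0.0 in 1 (Dnmt3b KO 12), with a combined human and mouse reference in 4 (WT 1, Dnmt3b KO 11, Dnmt3a KO 1 and Dnmt3a KO 13). Only the 31053 mouse genes, on mm10, were used. Libraries held 39528957 to 263845667 mouse UMIs.

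Counts of members were summed per embryo, for embryos with at least 10 members, and tested with edgeR 4.0.16 (TMM, filterByExpr, quasi-likelihood test, Benjamini-Hochberg adjustment over all genes tested) in R 4.3.3. Calls needed an adjusted p below 0.01 with a log2 fold change of 1 or more in size. The code was tested on simulated data. Embryos, not cells, were replicates. Doublets were scored with Scrublet (scanpy 1.11.5, at 0.8% per 1000 cells) and kept, 45 of the members being scored as such. Other steps used Python 3.11.15, numpy 2.4.6, scipy 1.17.1, pandas 2.3.3 and matplotlib 3.10.9. Shares carry 95% Clopper-Pearson intervals.

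The genes named were the 4 rule genes, Dnmt1, members of 25 lists, and the 10 higher and 10 lower genes with the largest change among those called, at 50 CPM or more in the higher group and without overlap between embryos. Promoters shown are those of Elf5 and of the 3 germline genes with the largest fitted change, from RefSeq on GRCm38.p6. The members and lists were chosen with earlier results of these data known. Alternatives tried were DESeq2 1.42.0 and its size factors, no filter on low counts, other minimum member numbers, quality and doublet filters, thinned counts, all groups in 1 fit, a replicate block, cells with all 4 rule genes, members with Hand1 or Eomes and without Trp63, and leaving out each embryo. Values of some genes are not reported here.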

Additional observations from a re-analysis of the deposited data

Results flagged for a closer look

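Values were looked at again where 1 embryo of a group of 4 to 7 stood apart from the rest by Dixon's test, which chance does in about 1 in 20 groups. This held for 28 of 100 values tested. WT 2 stood apart among the WT embryos in the share of members with Hand1 or Eomes and without Trp63, 72.1% against 0 to 20.8%. Its number of cells with all 4 rule genes, 23 against 0 to 3, and its rule gene sum, 337 CPM, were also among the 28. The rule genes chose the members, so for values of these genes the test is no evidence. In WT 2 the summed CPM of members was also apart for the ectoplacental cone and giant cell list (1790), the X-linked placental list (1480), the placental imprinted list (337) and the germline list (200.0). Single genes of WT 2 that stood apart were Fkbp6 at 5.90, Hspb1 at 73.3, Htra1 at 16.1, Gm21887 at 19.6, Tex15 at 25.1, Noct at 51.9 and Npnt at 38.2 CPM, Npnt being the only one of these below the rest.

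Among the other WT embryos, WT 1 had 3850 CPM of the trophoblast epithelium list and 367 CPM of cardiomyocyte genes, WT 3 had Dnmt1 at 148 CPM, and WT 6 had 629 CPM of p53 targets. WT 7 had 7.0 CPM of allantois genes, 35.4 CPM of endothelial genes and 3120 CPM of extraembryonic endoderm genes. Among Dnmt3b KO embryos, Dnmt3b KO 11 had 8 cells with all 4 rule genes against 0 or 1, again a count of the genes that chose the members and no evidence. Among Dnmt3a KO embryos, Dnmt3a KO 2 had 0.0% of members with Hand1 or Eomes and without Trp63, against 12.5 to 14.6%, and 309 CPM of extraembryonic endoderm genes. Dnmt3a KO 14 had 707 CPM of erythroid genes. Dnmt3a KO 1 had Htra1 at 13.9, Klf2 at 18.1 and Gm1673 at 64.1 CPM.

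The Dnmt1 KO effect differed between members and the other cells of the same embryos, by the interaction test. It was higher in members for 329 of 16852 genes (1.95%) and lower for 1021 (6.06%). With at least 25 members per embryo, the counts were 0 and 1. The makeup of WT members enters this contrast, so genotype and makeup cannot be told apart in it.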

How the results depend on the processing

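Over 3 Dnmt1 KO and 6 WT embryos, the counts of 352 higher and 1150 lower genes kept within 1.5 times under DESeq2 size factors, all groups in 1 fit, a lower minimum of members, and the quality and doublet filters, and DESeq2 gave 413 and 1328. They were 686 higher with no filter on low counts, 1 and 4 with at least 25 members per embryo (WT 1 and WT 2 only), 35 and 94 with thinned counts, 17 and 20 with all 4 rule genes, and 11 and 17 with members that held Hand1 or Eomes and no Trp63, these last 2 fits with WT 2 as the only WT embryo. Leaving out 1 embryo gave 165 to 719 higher and 491 to 1426 lower, 1099 to 1745 and 526 to 1124 in the other cells, 89 to 732 and 514 to 1396 for the difference between members and other cells, and 29 to 58 and 24 to 55 among cells with all 4 rule genes. The difference was called for 204 higher genes with DESeq2 size factors, 0 and 1 with 25 members, and 1 and 8 with all 4 rule genes. In place of the 17 higher genes among cells with all 4 rule genes, members with Hand1 or Eomes and no Trp63 gave 11. Over 14 lists, 33 genes were higher and 21 lower, against 1 and 3 with 25 members, 6 and 3 with all 4 rule genes, 9 and 6 with thinned counts, 5 and 3 with Hand1 or Eomes and no Trp63, and 21 to 51 and 12 to 24 without 1 embryo. Dnmt3a KO gave 0 to 4 higher and 0 to 1 lower, Dnmt3b KO 2 to 34 higher and 0 to 1 lower, and Dnmt3b KO 1 higher without the Dnmt1 KO embryos. The mean share of members was 0.320, 0.202 and 0.514% in Dnmt3a KO, Dnmt3b KO and WT, 0.0185, 0.0260 and 0.0746% with all 4 genes, 1.59, 1.21 and 1.90% with 2 or more, and 0, 0.00287 and 0.0128% with thinned counts. The causes were not tested.

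Replicate numbers shared by Dnmt1 KO and WT embryos correlated at -0.0853, 0.206 and 0.133 in their deviations, and unlike numbers at -0.353 to 0.331. The samples were therefore not paired by number, but so few shared numbers cannot exclude a pairing. With a replicate block, 51 genes were higher and 364 lower, and 9 and 12 over the 14 lists.

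Of 68 named genes, 46 kept their sign but lost the call with all 4 rule genes, 38 with Hand1 or Eomes and no Trp63, 36 with the replicate block, and 23, 21 and 13 without Dnmt1 KO 1, 2 and 3. A further 7 turned sign with all 4 rule genes, to log2 fold changes of 1.23 (Airn), 0.95 (Dlx3), 0.49 (Flt1), 0.81 (Hoxaas3), 1.42 (Meg3), 0.34 (Mest) and 0.43 (Nnat). With Hand1 or Eomes and no Trp63, 16 turned sign, to 1.61 (Airn), 0.33 (Blcap), 0.13 (Cdh3), 0.59 (Dlx3), 1.47 (Flt1), 7.06 (Gap43), 1.84 (Gas1), 8.89 (Hapln1), 0.30 (Krt7), 1.68 (Meg3), 1.60 (Mest), 1.86 (Ndn), 0.99 (Nnat), 1.32 (Sox9), 7.5 (Tagln) and 1.41 (Tfap2a). Few WT members limit these comparisons.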
